A study of Mus musculus with 6 samples.

Results

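The 37 genes described here encode enzymes and complex subunits that write, read or remove DNA methylation and Polycomb histone marks. They were chosen by symbol, and all 37 passed the minimum for testing, a mean of 1 normalized count across the 6 libraries. A normalized count is a gene's number of reads after scaling by the size factor of each library, so that 1 read is worth close to 1. The table holds 23997 gene symbols, of which 15662 passed this minimum. By role, 7 of the 37 genes belong to DNA methylation and demethylation, 9 to Polycomb repressive complex 2 (PRC2), 16 to Polycomb repressive complex 1 (PRC1), and 5 to enzymes that oppose Polycomb or act beside it.

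Gene expression was compared between wildtype and *Mirc11-/-* hematopoietic stem and progenitor cells (HSPCs), to ask how the loss of a microRNA cluster affects them. Both groups were C57BL/6 mice aged 6 to 8 weeks. *Mirc11-/-* mice carry a germline deletion of the cluster with the genes Mir23a, Mir27a and Mir24-2, present in every cell, so an effect in the HSPCs themselves and an effect of other cells on them cannot be told apart. Each genotype had 3 libraries, and each library came from 1 RNA preparation of sorted Lin-Sca1+Kit+ (LSK) bone marrow cells of 3 to 4 mice, so the spread between libraries is one between pools of mice. The labels give all 6 libraries the same batch.

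DNMT1 copies methyl groups onto the new DNA strand after replication with the help of UHRF1, DNMT3A and DNMT3B add new ones, and the TET enzymes oxidize them as a step toward removal. PRC2 methylates lysine 27 of histone H3, and PRC1 binds this mark or unmethylated CpG islands and ubiquitinates histone H2A, which together keep developmental genes silent. In blood, TET2, DNMT3A, ASXL1 and EZH2 are known as genes mutated in clonal hematopoiesis and myeloid malignancies, and BMI1 as a factor of stem cell self-renewal.

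The microRNAs of the deleted cluster are shown because pairing of their seed (bases 2 to 8, in capitals) with a 3′ UTR is the usual basis of target choice. The 3 seeds differ, and those of miR-23a and miR-27a share their first bases. The mature sequences are those of RefSeq for GRCm38.p6, on the plus strand of chromosome 8, at 84208563 to 84208583 for miR-23a-3p, 84208727 to 84208747 for miR-27a-3p and 84208875 to 84208896 for miR-24-3p.
mmu-miR-23a-3p: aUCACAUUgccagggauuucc
mmu-miR-27a-3p: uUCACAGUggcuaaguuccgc
mmu-miR-24-3p: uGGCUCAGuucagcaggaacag

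The precursor genes had few reads in these libraries. Mir23a had 16, 16 and 19 reads in the wildtype libraries, Mir27a 10, 16 and 28, and Mir24-2 8, 21 and 44. All 3 genes had 0 reads in every *Mirc11-/-* library, as their labels give it.

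The 3′ UTRs of Tet3 and Jarid2, the members with the smallest p among those with higher values in *Mirc11-/-* HSPCs, and of Phc3 held an 8-base match to miR-23a-3p. Tet3 encodes a methylcytosine dioxygenase, Jarid2 a DNA-binding cofactor of PRC2, and Phc3 a polyhomeotic subunit of PRC1. Capitals mark the bases complementary to the seed and, in the 8-base matches, the A after them. The sequences are from GENCODE vM21 transcripts on GRCm38 and read 5′ to 3′ along the mRNA. Tet3 is on the minus strand at chr6:83362373-83459084 and Jarid2 on the plus strand at chr13:44729474-44921643.
Tet3 miR-23a match, UTR bases 4558 to 4565: ttttgaataaaAATGTGAAtctcctctgtc
Tet3 miR-23a match, UTR bases 1105 to 1111: ctcagccagccAATGTGAtggcaggtcac
Tet3 miR-23a match, UTR bases 2305 to 2311: agcatttggagAATGTGAccgtgtatatg
Tet3 miR-23a match, UTR bases 3716 to 3722: tatggtgtttcAATGTGActgtccctgat
Jarid2 miR-23a match, UTR bases 970 to 977: agttctttttgAATGTGAAacacatctgtg
Phc3 miR-23a match, UTR bases 6081 to 6088: tgcaagaagtcAATGTGAAatcattgtgca

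Per gene, the search covered the sense strand of its longest 3′ UTR in the annotation. An 8-base match was AATGTGAA for miR-23a-3p, ACTGTGAA for miR-27a-3p and CTGAGCCA for miR-24-3p. A 7-base match was the same letters without the last or without the first one, and an 8-base match was counted once and not also as its parts. At least 1 match was present in 24 of the 37 members (64.9%) and in 55.4% of the 13563 tested genes with a 3′ UTR. The members' 3′ UTRs were longer, with a median of 1962 against 1287 bases, and per kilobase they held 0.556 matches against 0.675. An 8-base match was present in 9 members (24.3%) and in 20.5% of all genes. A match is a description of the letters and not evidence that the microRNA acts there.

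Values of both genotypes overlapped for most of the members. Of the 37 genes, 0 were called higher (0.00638% of all genes tested were) and 0 lower (0.0255%) at an adjusted p under 0.05 by limma, and the lowest adjusted p was 0.419. At an unadjusted p under 0.05 there were 2 higher members (Jarid2 and Tet3; 4.15% of all genes) and 2 lower (Kdm6b and Phf19; 4.09%). The values of the genotypes did not overlap for 2 members that were higher in *Mirc11-/-* HSPCs (Jarid2 and Tet3; 6.42% of all genes) and for 4 that were lower (Tet2, Ring1, Kdm2b and Kdm6b; 6.53%). In either direction 0 members were called (0.0319% of all genes), 4 (10.8%; 8.24% of all genes) had an unadjusted p under 0.05, and 6 (16.2%; 12.9% of all genes) did not overlap.

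The log2 fold changes, on the log2(normalized count + 1) scale and as *Mirc11-/-* minus wildtype, were small. They lay within 0.2 of 0 for 32 of the 37 members and had a median of -0.06, against 0.0025 over all genes. They were negative for 26 members (70.3%; 49.5% of all genes) and positive for 11. The median was 0.0063 with the erythroid markers as a covariate and -0.10 without *Mirc11-/-* library 3. For 31 members (83.8%; 76% of all genes) the difference of the means was smaller than the range of the 3 wildtype libraries.

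**Figure D1:**
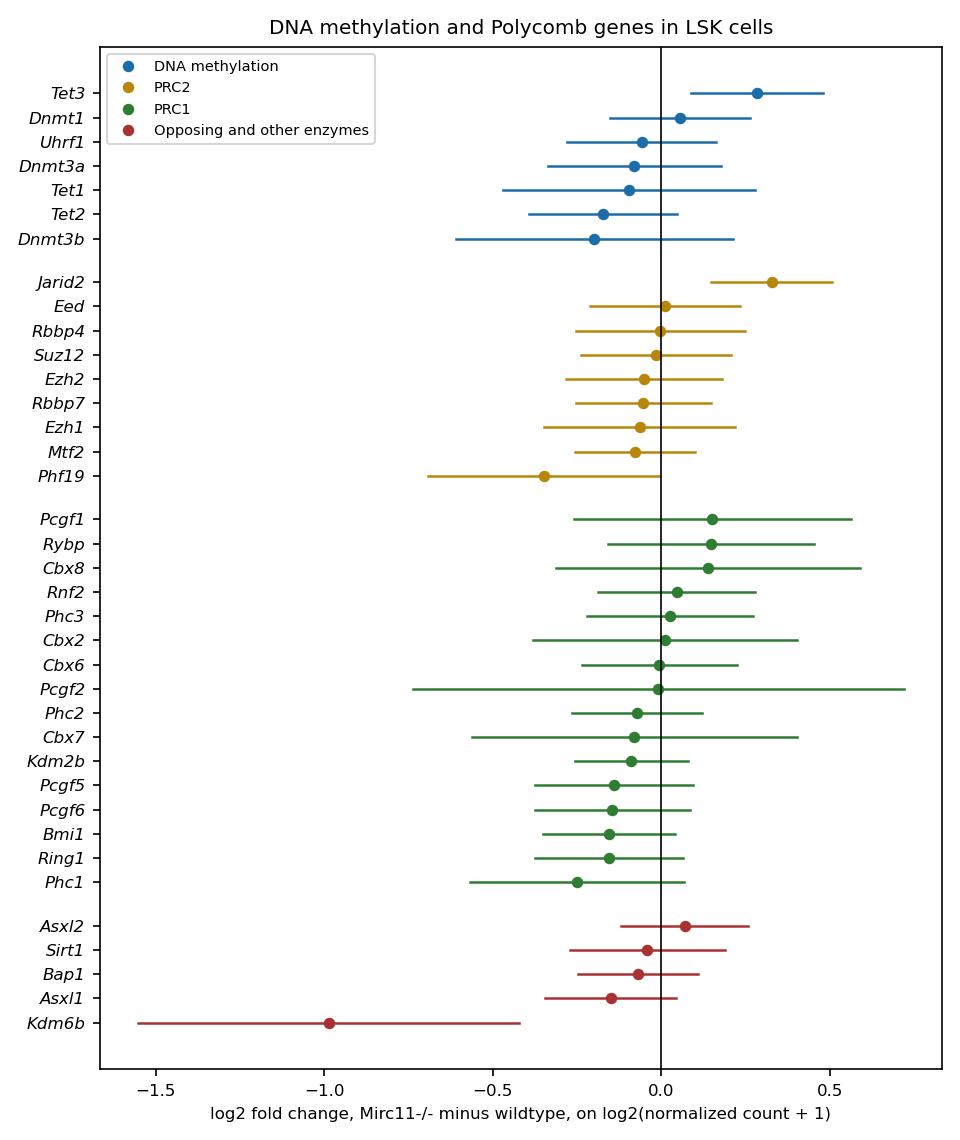
Log2 fold change (x axis, *Mirc11-/-* minus wildtype on log2(normalized count + 1)) of the 37 members, colored by role and ordered by value within each role. Points are limma estimates and bars their 95% intervals; Kdm6b lies farthest from 0 at -0.99, and the intervals of Jarid2, Tet3, Phf19 and Kdm6b leave out 0.

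The libraries differed in other genes as well. *Mirc11-/-* library 3 stood at -19.5 on the first principal component of all genes (31.3% of the variance), among the wildtype libraries at -26.2 to -13.5, while libraries 1 and 2 stood at 54.6 and 25.5. Markers of LSK cells, including Kit, Cd34, Flt3 and Ly6a (Sca-1), were present in every library, and the LSK list summed to 41653 to 49879 normalized counts in wildtype and 27598 to 49712 in *Mirc11-/-* HSPCs. Of its 12 genes, 9 had negative and 3 positive log2 fold changes. Cd34 (-0.43) and Flt3 (-0.49) had an unadjusted limma p under 0.05. Erythroid markers, all 20 with a positive log2 fold change and 9 with an unadjusted limma p under 0.05, summed to 23089.7 to 33128 in wildtype and to 60762, 55578 and 24307 in *Mirc11-/-* libraries 1, 2 and 3. In that list 3 pairs of hemoglobin genes hold identical values. The 12 genes of cell activation and tissue handling, such as Fos, Jun and Egr1, all had negative log2 fold changes, 11 of them at an unadjusted limma p under 0.05. They summed to 177654 to 262482 in wildtype and 71922 to 123065 in *Mirc11-/-* HSPCs. The paper's supplement lists Fos, Jun and Egr1 among genes downstream of inflammatory cytokines. The name of the list is a label, and what lowered these genes was not tested. B cell markers summed to at most 739 and T cell markers to at most 139.9 normalized counts in any library, and Cd3e was under the minimum. Of the 7 B cell markers 6 had positive and 1 negative log2 fold changes, with a median of 0.76. Among them 1 higher gene had an unadjusted limma p under 0.05. Of the 4 tested T cell markers 2 were positive and 2 negative. The mature myeloid list, which includes Mpo and Elane, summed to 143308 to 174071 in wildtype and 124083 to 194954 in *Mirc11-/-* HSPCs. Of its 9 tested genes 6 had negative log2 fold changes, and 1 higher and 2 lower had an unadjusted limma p under 0.05. All 4 megakaryocyte markers had positive log2 fold changes, 0 of them at such a p. In bulk RNA, a change in the number of cells of a type and a change in RNA per cell cannot be told apart.

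Among the DNA methylation genes, maintenance enzymes were the most abundant. Per kilobase of the longest transcript, which allows levels of different genes to be compared, Dnmt1 stood at 1578 ± 67.2 and Uhrf1 at 1298 ± 112 normalized counts in wildtype (SD, n = 3). Dnmt3b followed at 397 ± 27.8, Dnmt3a at 265 ± 20, Tet3 at 168 ± 15.5, Tet2 at 108 ± 0.565 and Tet1 at 73.4 ± 15.8. The values of neighbours in this order did not overlap between wildtype libraries. The order of Tet2 and Tet1 depends on the transcript models, with a Tet2 to Tet1 ratio of 1.52 ± 0.294 per kilobase of the longest transcript and 0.889 per kilobase of all annotated exons.

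Dnmt1 and Uhrf1, the maintenance methyltransferase and its recruiting partner, overlapped between the genotypes. Dnmt1 had 9574, 9400.2 and 8821 normalized counts in wildtype libraries 1, 2 and 3, and 10631, 9573 and 8732 in *Mirc11-/-* libraries 1, 2 and 3. Uhrf1 had 4978, 4782 and 4205 in wildtype, and 4964, 4235 and 4211 in *Mirc11-/-* HSPCs. The third library was the lowest of both groups for both genes, and their log2 fold changes were 0.05 (SE 0.09) and -0.06 (SE 0.10).

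The de novo methyltransferases went the other way across libraries. Dnmt3a had 2369, 2568 and 2756 normalized counts in wildtype, and 2327, 2148 and 2838 in *Mirc11-/-* HSPCs. Dnmt3b had 1588, 1728 and 1827 in wildtype, and 1179, 1364 and 2059 in *Mirc11-/-* HSPCs. *Mirc11-/-* libraries 1 and 2 were below every wildtype library and library 3 above them for both genes, with log2 fold changes of -0.08 (SE 0.11) and -0.20 (SE 0.18). The direction of Dnmt3b depended on the fit. Without *Mirc11-/-* library 3, which leaves the 2 libraries with high erythroid markers, its log2 fold change was -0.43 and it was called lower by limma, in a fit that called 3.4% of all genes. With the erythroid markers as a covariate it was 0.19, with an unadjusted limma p of 0.046 in the higher direction, and Dnmt3b was not called.

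Of the 3 TET genes, only Tet3 had an unadjusted p under 0.05. Tet3 had 1729.7, 1749 and 2032 normalized counts in wildtype, and 2251, 2275 and 2168 in *Mirc11-/-* HSPCs. Every *Mirc11-/-* library was above every wildtype library. The mean was 1837 ± 169 in wildtype and 2232 ± 56 in *Mirc11-/-* HSPCs (SD, n = 3), a log2 fold change of 0.28 (SE 0.09, 95% interval 0.09 to 0.48) with a limma p of 0.0095 before and 0.473 after adjustment over all genes.

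Tet2, on chr3:133463679-133545139, had 990.1, 1000.4 and 994 normalized counts in wildtype, and 982, 874 and 800.0 in *Mirc11-/-* HSPCs. The wildtype libraries were nearly equal, and all 3 *Mirc11-/-* libraries were lower, the first of them only slightly. The log2 fold change was -0.17 (SE 0.10, adjusted p = 0.639 by limma). It was -0.10 without *Mirc11-/-* library 3, -0.25 without library 1 and -0.29 with the erythroid covariate, and the unadjusted p was under 0.05 in the last 2 of these fits. Tet1, the least abundant TET gene by longest transcript, had 891, 959.7 and 1313 in wildtype and 853, 928 and 1163 in *Mirc11-/-* HSPCs, which overlap.

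The Tet3 to Tet2 ratio per kilobase, read off after these values were seen, was 1.47, 1.47 and 1.72 in the wildtype libraries and 1.93, 2.19 and 2.28 in the *Mirc11-/-* libraries. Every *Mirc11-/-* library was above every wildtype library for Tet3 and below every one for Tet2, so these ratios could not overlap. Their separation adds nothing to the values of the single genes.

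**Figure D2:**
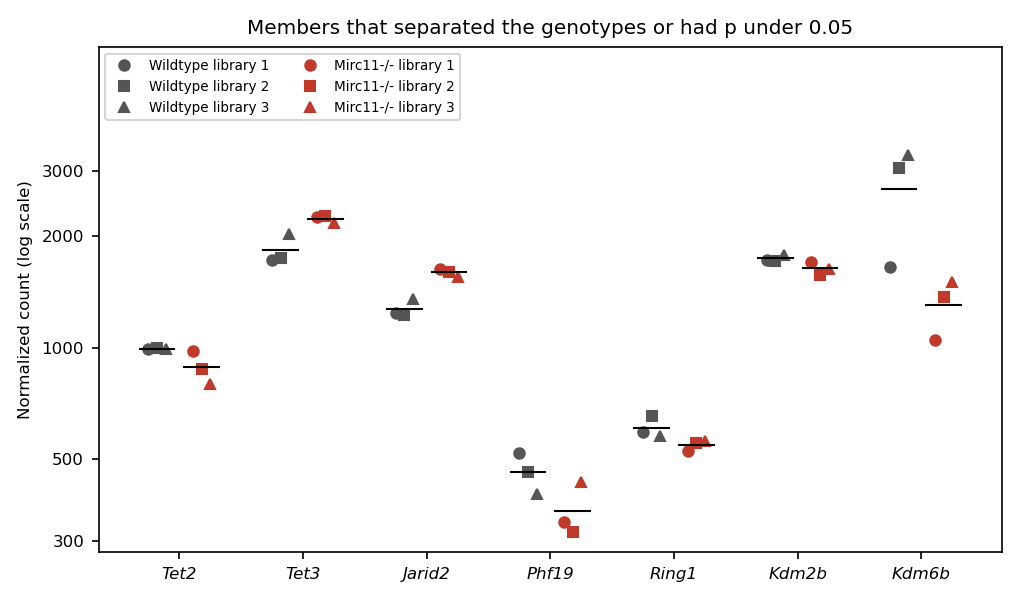
Normalized counts (y axis, log scale) of the 7 members with an unadjusted p under 0.05 or with values that do not overlap between the genotypes. Points are single libraries and lines the group means; Tet3 and Jarid2 are higher in all 3 *Mirc11-/-* libraries, Tet2, Ring1, Kdm2b and Kdm6b are lower in all 3, and Phf19 overlaps.

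The PRC2 core did not separate the genotypes. Ezh2, the more active of its 2 methyltransferases, had 3572, 3857 and 3236 normalized counts in wildtype, and 3847, 3317 and 3133 in *Mirc11-/-* HSPCs. Ezh1, its paralog, had 919, 934 and 1001 in wildtype, and 771, 902 and 1081 in *Mirc11-/-* HSPCs. The ranges of both genes overlapped, with log2 fold changes of -0.05 (SE 0.10) and -0.06 (SE 0.12), and the intervals of -0.28 to 0.18 and -0.35 to 0.22 do not leave out moderate differences. Per kilobase, Ezh2 exceeded Ezh1 5.66 ± 0.70 times in wildtype and 5.82 ± 1.60 times in *Mirc11-/-* HSPCs. Per kilobase of all annotated exons it was 4.18 times in wildtype.

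Eed, which reads the mark that PRC2 makes, had 1557, 1510.5 and 1615 normalized counts in wildtype, and 1801, 1478 and 1461 in *Mirc11-/-* HSPCs. Suz12, the scaffold of the complex, had 3656, 3741 and 3434 in wildtype, and 4046, 3543 and 3172 in *Mirc11-/-* HSPCs. For both, *Mirc11-/-* library 1 was above and library 3 below every wildtype library. The histone-binding subunits Rbbp4 and Rbbp7, which also serve other complexes, ranged from 5792 to 7399 and from 5526 to 6649 over the 6 libraries, with log2 fold changes of -0.003 (SE 0.11) and -0.05 (SE 0.09). Rbbp7 was the most abundant member per kilobase, at 2720 ± 250.3 in wildtype.

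Among the PRC2 genes, the log2 fold changes farthest from 0 were those of the accessory subunits Jarid2 and Phf19. Jarid2 had 1243, 1225 and 1358 normalized counts in wildtype, and 1635, 1604 and 1555 in *Mirc11-/-* HSPCs. The genotypes did not overlap, and the lowest *Mirc11-/-* value, in library 3, still exceeded the highest wildtype value. The mean was 1275 ± 72.3 in wildtype and 1598 ± 40.7 in *Mirc11-/-* HSPCs (SD, n = 3), a log2 fold change of 0.33 (SE 0.08, 95% interval 0.15 to 0.51) with a limma p of 0.0027 before and 0.419 after adjustment. Jarid2 and Tet3 had a positive log2 fold change and an unadjusted p under 0.05 in all 16 alternative fits. By adjusted p they were called only with array weights. Kdm6b, described below, also had an unadjusted p under 0.05 in all 16, with negative log2 fold changes.

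Phf19, which encodes a PRC2 partner that binds methylated lysine 36 of histone H3 and lies at chr2:34893757-34914026, had 519.7, 461 and 402 normalized counts in wildtype, and 339, 319 and 433 in *Mirc11-/-* HSPCs. *Mirc11-/-* libraries 1 and 2 were below every wildtype library, and library 3 lay within the wildtype range. The log2 fold change was -0.35 (SE 0.15, adjusted p = 0.597 by limma), and -0.22 with the erythroid covariate. Its unadjusted p, 0.048, was not under 0.05 in 8 of the 16 alternative fits, the replicate block and that covariate among them. Mtf2, a paralog of Phf19, overlapped at 3212 to 3478 in wildtype and 3036 to 3424 in *Mirc11-/-* HSPCs.

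Among the 16 PRC1 genes, 6 had positive and 10 negative log2 fold changes, from -0.25 (Phc1) to 0.15 (Pcgf1), and 0 had an unadjusted limma p under 0.05. Ring1 and Rnf2 encode the paralogous ubiquitin ligases of the complex. Ring1, on chr17:34020792-34024680, had 594, 655 and 579 normalized counts in wildtype, and 525, 554 and 559 in *Mirc11-/-* HSPCs. Rnf2 had 1161, 1241 and 1328 in wildtype, and 1136, 1317 and 1404 in *Mirc11-/-* HSPCs. Ring1 was lower in all 3 *Mirc11-/-* libraries, by -0.16 on the log2 scale (SE 0.10, limma adjusted p = 0.668), and Rnf2 overlapped, at 0.04 (SE 0.10).

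The PCGF subunits define the kinds of PRC1. Bmi1 (PCGF4) had 1282, 1196 and 1277 normalized counts in wildtype, and 1051, 1118 and 1204 in *Mirc11-/-* HSPCs. Its paralog Pcgf2 had 120.3, 177 and 239 in wildtype, and 109, 221 and 207 in *Mirc11-/-* HSPCs. Bmi1 overlapped only through *Mirc11-/-* library 3, with a log2 fold change of -0.16 (SE 0.09), while Pcgf2 varied 2-fold within each genotype, at -0.01 (SE 0.32). Per kilobase, Bmi1 exceeded Pcgf2 5.25 ± 1.90 times in wildtype, and 6.73 times per kilobase of all annotated exons. Pcgf1, Pcgf5 and Pcgf6, of the variant complexes, had log2 fold changes of 0.15, -0.14 and -0.15, and all overlapped.

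Kdm2b, which brings a variant PRC1 to unmethylated CpG islands and lies at chr5:122870665-122989823, had 1729, 1718 and 1784 normalized counts in wildtype, and 1703, 1577 and 1637 in *Mirc11-/-* HSPCs. All *Mirc11-/-* libraries were below the wildtype libraries, library 1 by little, and the log2 fold change was -0.09 (SE 0.07, adjusted p = 0.752 by limma). Rybp, a subunit of variant PRC1, had 315, 304 and 403 in wildtype, and 376, 374 and 372 in *Mirc11-/-* HSPCs, which overlap.

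The CBX subunits, which bind methylated lysine 27, varied more within the genotypes than between them. Cbx2 had 476, 516 and 676 normalized counts in wildtype, and 479, 517 and 686 in *Mirc11-/-* HSPCs. Cbx7 had 428, 342 and 453 in wildtype, and 288, 372 and 525 in *Mirc11-/-* HSPCs. Cbx8, the least abundant member per kilobase at 51.7 ± 11.3 in wildtype, had 146, 183 and 227 in wildtype, and 174, 196 and 236 in *Mirc11-/-* HSPCs. Library 3 was the highest of its genotype for all 3 genes, and their log2 fold changes were 0.01, -0.08 and 0.14. Cbx6 ranged from 2094 to 2630.3 over the 6 libraries, with a log2 fold change of -0.01.

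The polyhomeotic subunits Phc1, Phc2 and Phc3 connect PRC1 complexes with each other. On the log2 scale they differed by -0.25 (SE 0.14), -0.07 (SE 0.09) and 0.03 (SE 0.11) between the genotypes. Phc1 was at 902 to 1023 normalized counts in wildtype, and at 681, 778 and 1004 in *Mirc11-/-* libraries 1, 2 and 3, so that only the third lay in the wildtype range.

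**Figure D3:**
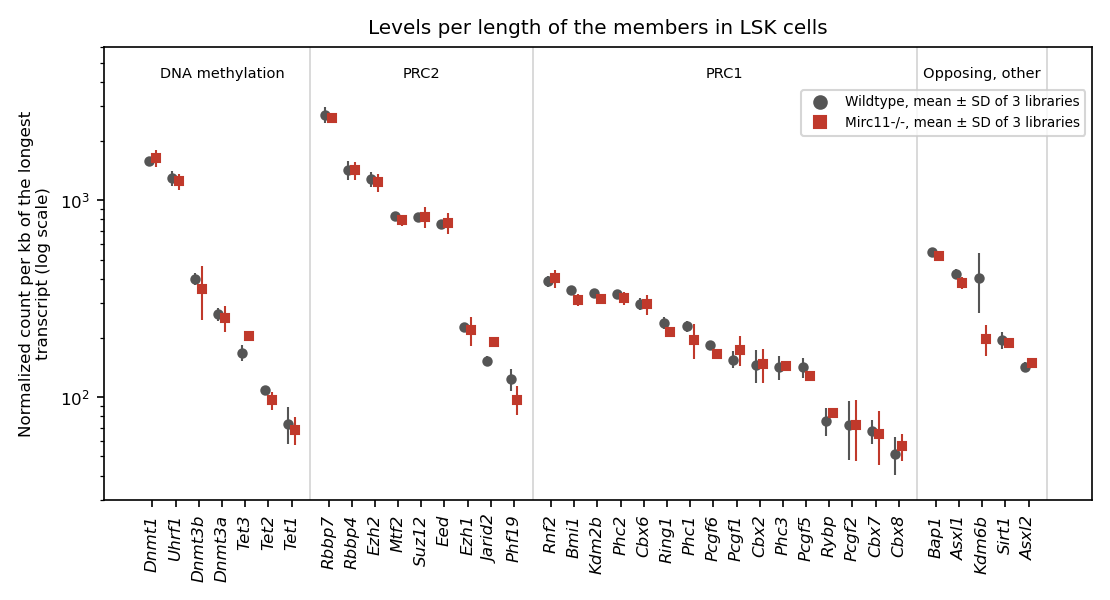
Normalized counts per kilobase of the longest annotated transcript (y axis, log scale) of the 37 members, by role and in order of their wildtype level. Points are means and bars SDs of 3 libraries per genotype; levels in wildtype run from 51.7 for Cbx8 to 2720 for Rbbp7, and the points of both genotypes lie close together for most members, with Kdm6b farthest apart.

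Kdm6b, which encodes a demethylase that removes the PRC2 mark and is induced by inflammatory signals in macrophages, had the lowest log2 fold change of the members. It lies at chr11:69398508-69413675 on the minus strand and held 0 seed matches. Kdm6b had 1651, 3066 and 3322 normalized counts in wildtype, and 1047, 1371 and 1502 in *Mirc11-/-* HSPCs. The genotypes did not overlap, although wildtype library 1 was nearer to the *Mirc11-/-* libraries than to the other wildtype libraries. The mean was 2679 ± 899.9 in wildtype and 1307 ± 234 in *Mirc11-/-* HSPCs (SD, n = 3), or 48.8% of wildtype, a log2 fold change of -0.99 (SE 0.25, 95% interval -1.55 to -0.42) with a limma p of 0.0034 before and 0.425 after adjustment.

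Kdm6b had a negative log2 fold change and an unadjusted limma p under 0.05 in all 16 alternative fits, but its call by adjusted p depends on the fit. Without *Mirc11-/-* library 3 it was called lower by limma at an adjusted p of 0.050, just under the threshold, and over all 16 alternatives its adjusted p ranged from 0.00108 to 0.999. With the erythroid markers as a covariate its log2 fold change was -0.61. The 6 libraries stood in the same order by Kdm6b as by the summed activation and tissue handling genes. Per 1000 normalized counts of that list, a ratio chosen after the values were seen, Kdm6b had 9.29, 14.8 and 12.7 in wildtype and 14.6, 11.5 and 12.2 in *Mirc11-/-* HSPCs, which overlap. The part of these genes in the result was not tested. On the opposite strand, Kdm6bos shares 4.11% of the exon bases of Kdm6b.

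The other opposing enzymes overlapped. Bap1, the H2A deubiquitinase, had 2046, 2211 and 2062 normalized counts in wildtype, and 2111, 2014 and 1902 in *Mirc11-/-* HSPCs. Its cofactor Asxl1 had 2980.1, 3114 and 2764 in wildtype, and 2443, 2719 and 2823 in *Mirc11-/-* HSPCs. Sirt1, a deacetylase, had 762, 903 and 926 in wildtype, and 845, 864 and 799 in *Mirc11-/-* HSPCs. The log2 fold change was -0.07 (SE 0.08) for Bap1, -0.15 (SE 0.09) for Asxl1 and -0.04 (SE 0.10) for Sirt1, and that of Asxl2, a paralog of Asxl1, was 0.07 (SE 0.08).

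Part of the spread within the genotypes was shared among members. In both genotypes library 3 was the lowest of its group for Dnmt1, Uhrf1, Ezh2, Suz12, Rbbp4 and Rbbp7, 6 of 37 members (16.2%; 21.1% of all genes). It was the highest for 13 members (35.1%; 22% of all genes), namely Dnmt3a, Dnmt3b, Tet1, Ezh1, Mtf2, Rnf2, Cbx2, Cbx6, Cbx7, Cbx8, Phc1, Phc3 and Kdm6b. These groups were formed after the values were seen, and the libraries of both genotypes share only a number. Markers of cycling cells, such as Mki67 and Top2a, were lowest in library 3 of both genotypes for 19 of 20 genes and summed to 88597, 88194 and 71126 in wildtype and 104742, 88578 and 71507 in *Mirc11-/-* HSPCs. LSK markers were highest there for 10 of 12 genes.

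Ratios of paralogs give the same values in another form, since each sets a gene that was lowest in library 3 against one that was highest there. The Ezh2 to Ezh1 ratio of normalized counts was 3.89, 4.13 and 3.23 in wildtype, and 4.99, 3.68 and 2.90 in *Mirc11-/-* HSPCs. The Dnmt1 to Dnmt3b ratio was 6.03, 5.44 and 4.83 in wildtype, and 9.01, 7.02 and 4.24 in *Mirc11-/-* HSPCs. Both were highest in *Mirc11-/-* library 1, and both overlapped between the genotypes. The part of cycling in these ratios was not tested.

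**Figure D4:**
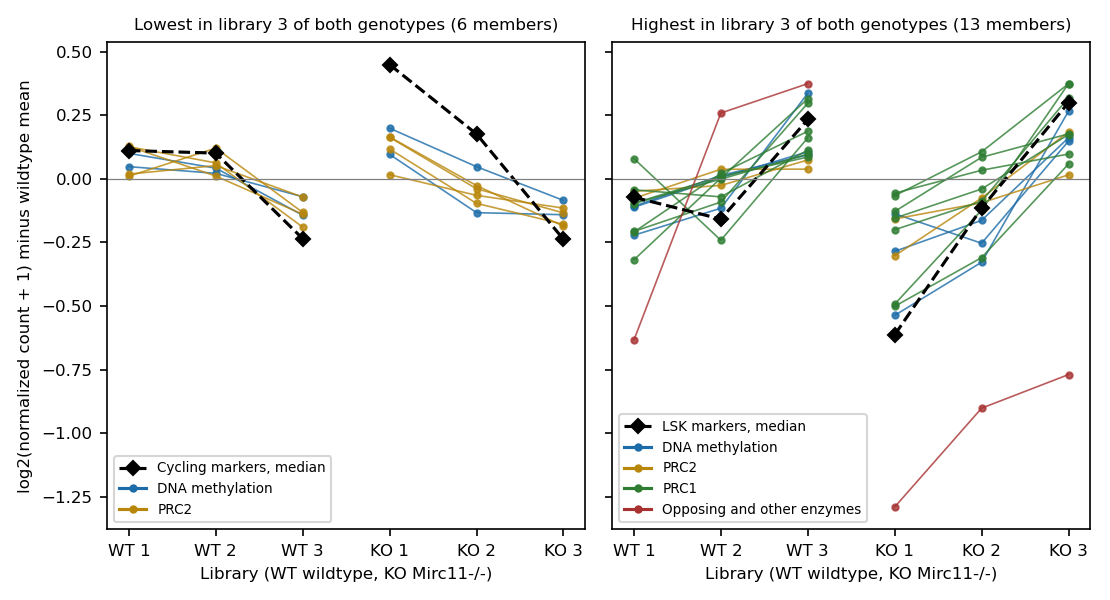
Log2(normalized count + 1) minus the wildtype mean (y axis) in each library (x axis) for the 6 members that were lowest and the 13 that were highest in library 3 of both genotypes. Colored lines join the values of 1 gene and the black dashed line is the median of the cycling markers (left) or the LSK markers (right), which was lowest (left) or highest (right) in library 3 of each genotype.

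Set against the seed matches of 7 or 8 bases, the fold changes of the members showed no common direction. The median log2 fold change was -0.06 for the 24 members with a match and -0.06 for the 13 without. Counting 8-base matches only, it was 0.04 for the 9 members with a match, 6 of them positive, and -0.07 for the 28 without. The members with an 8-base match to miR-23a-3p were Tet3, Jarid2 and Phc3 (8.11%; 7.30% of all genes), and all 3 log2 fold changes were positive, at 0.28, 0.33 and 0.03. With 7-base matches counted too, 5 of the 13 members with a match to miR-23a-3p were positive. Their median was -0.08, against -0.06 for the members without. For miR-27a-3p 6 of 15 members with a match were positive, and for miR-24-3p 2 of 13. Over all genes, the 990 with an 8-base match to miR-23a-3p had a median of 0.05, against 0.0006 for those without. Of these 990, 60.5% were positive. Among all genes with an 8-base match, 57.2% were positive for miR-27a-3p and 52.2% for miR-24-3p.

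Tet3 held 4 matches to miR-23a-3p and 1 to miR-27a-3p. Of all genes, 0.671% held 4 or more to miR-23a-3p. That share is no test of rarity, because the cut is the count of Tet3 itself. Its 3′ UTR had 5669 bases, against a median of 1287 over all genes. Over all 3 microRNAs it held 0.882 matches per kilobase, against 0.675 over all genes. Jarid2 held 1 match to miR-23a-3p and 2 to miR-27a-3p. Counted over all 3 microRNAs, Tet3 held 5 matches and Jarid2 3. Members with negative log2 fold changes held as many, with 5 in Tet1, 4 in Phc1 and 3 each in Bmi1, Dnmt3a and Sirt1. Phf19 and Tet2 held 2 each and Kdm2b 1, while Ring1 and Kdm6b held 0. To miR-23a-3p alone, Tet1 and Sirt1 held 2 matches each and Phc1, Bmi1 and Dnmt3a 1 each, none of 8 bases. For miR-27a-3p an 8-base match was present in Bmi1, Rybp and Asxl2, and for miR-24-3p in Dnmt3a, Rnf2 and Pcgf5, and each of these sets held log2 fold changes of both signs.

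**Figure D5:**
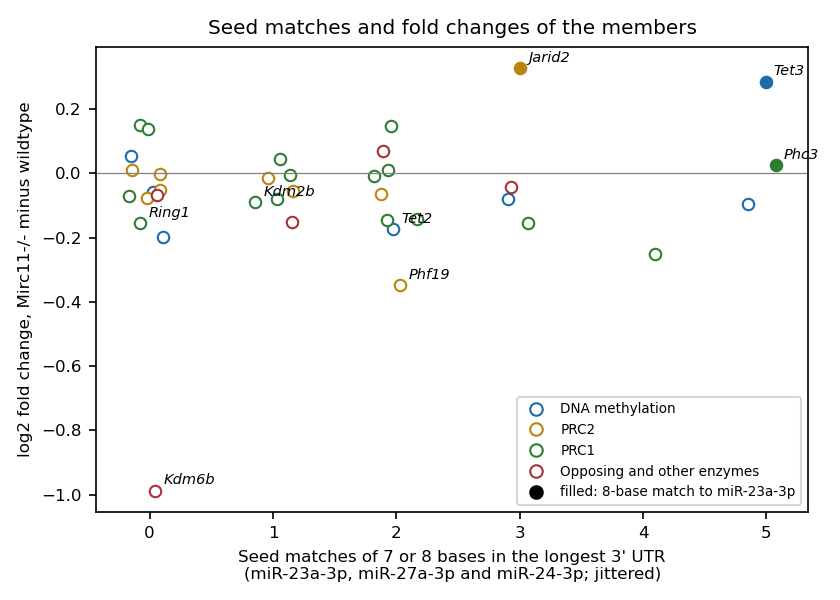
Log2 fold change (y axis, *Mirc11-/-* minus wildtype) against the number of seed matches of 7 or 8 bases in the longest 3′ UTR (x axis, shifted slightly at random for display) for the 37 members, colored by role. Filled points are the 3 members with an 8-base match to miR-23a-3p, at 0.28, 0.33 and 0.03; members with 0 matches run from -0.99 to 0.15.

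Other genes of the same pathways were counted from lists of their own. Of 53 listed genes 52 were tested, 0 were called by limma, and 3 higher and 1 lower had an unadjusted p under 0.05 (4.15% and 4.09% of all genes). Their median log2 fold change was 0.06, and 36.5% were negative. The lower gene was Auts2, a subunit of a PRC1 linked to gene activation, with 123, 134 and 164 normalized counts in wildtype, and 88.9, 60.2 and 89.6 in *Mirc11-/-* HSPCs (log2 fold change -0.82, SE 0.22, adjusted p = 0.431 by limma).

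The 3 higher genes were Ogt, Bcorl1 and Tdg. Ogt, the O-GlcNAc transferase that binds TET2 and TET3, had 4337, 3947 and 5242 normalized counts in wildtype, and 5408, 6244 and 6724 in *Mirc11-/-* HSPCs, which gave 0.45 on the log2 scale (SE 0.12, limma adjusted p = 0.441). Bcorl1, a corepressor of variant PRC1, had 527, 524 and 573 in wildtype, and 665, 668 and 653 in *Mirc11-/-* HSPCs (0.29, SE 0.09, adjusted p = 0.481 by limma). Tdg, the glycosylase that excises the bases TET enzymes oxidize, had 270.2, 369 and 256 in wildtype, and 406, 439 and 342 in *Mirc11-/-* HSPCs (0.42, SE 0.17, adjusted p = 0.573 by limma). Auts2, Ogt and Bcorl1 did not overlap between the genotypes, and Tdg did. The next genes by p were Usp7 (0.19) and Zbtb33 (0.19) for DNA methylation, Epop (-0.32), Lcorl (0.12) and Eloc (0.10) for PRC2, Bcor (-0.16) for PRC1, and Mbd5 (0.27) and Kmt2b (0.11) for opposing enzymes, given as log2 fold changes.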

How the data were processed

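RNA-seq libraries of sorted LSK cells were analysed from the deposited table, with 3 libraries per genotype taken from the submitters' labels. STAR, Cufflinks and mm10 are named in the submitters' processing notes, whereas hg19 and FPKM stand in the supplementary methods. Symbols are of mouse genes, so mm10 (GRCm38) was assumed. Tool versions and the gene annotation behind the counts are not stated in these sources. The values that the authors deposited are a signal per gene, equal to reads divided by a library size factor and not by gene length. Of the values above 0, 100% were whole multiples of 1 step per library within 0.001. Each library had 15029379 to 17051541 reads in genes. The table's 23999 entries hold 23997 symbols, and the 2 symbols on more than 1 entry were summed. Mutant columns were matched to samples by genotype prefix and number.

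The 15662 genes whose mean reached 1 were tested two-sided by limma 3.58.1 (R 4.3.3) on log2(value + 1), with a mean-variance trend. P-values were adjusted by Benjamini-Hochberg over all these genes, at a threshold of 0.05. P-values set the genotype difference against the spread between these pooled RNA preparations, which limma moderates over all genes. Members and gene lists were chosen with earlier results of these data known. Per-library values were given for members with an unadjusted p under 0.05, without overlap, or with the enzyme activity or the choice between paralogs, and other pathway genes were named if among the 3 smallest p of their list. Epop, Eloa, Elob, Eloc and Epb42 were matched by older symbols, Dppa3 was under the minimum, and the marker Ly6g was not analysed here. Gene models, lengths and 3′ UTRs are from GENCODE vM21, and 86.6% of the genes tested had a 3′ UTR. Of the members, 11 share over 2% of their exon bases with another annotated gene (at most 9.1%, Rbbp4), and whether reads were counted by strand is not given in the sources used here. Alternatives were other pseudocounts, filters and size factors, no trend, array weights, a replicate block, an erythroid covariate, each library left out, 8-base matches and all annotated exons.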

Additional observations from a re-analysis of the deposited data

How the results depend on the processing

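The count of 0 members called lower became 14 with array weights and 1 with the replicate block (Kdm6b, adjusted p = 0.0151 by limma), and ranged from 0 to 2 with each library left out, with 2 (Dnmt3b and Kdm6b) without *Mirc11-/-* library 3. The count of 0 called higher became 4 with array weights and did not change when a library was left out. Array weights called 36.2% of all genes in a fit that stopped before it converged, and the replicate block 0.192%. At an unadjusted p under 0.05, the 2 higher members became 5 with array weights (47.1% of all genes had such a p in either direction) and 4 with the erythroid covariate (9.07%), which added Cbx2 and Dnmt3b, and were 2 to 3 with a library left out. The 2 lower members became 1 with a minimum mean of 10, 1 without the trend and 15 with array weights, and ranged from 1 to 5 with a library left out, with 5 without *Mirc11-/-* library 3 (Bmi1, Dnmt3b, Kdm6b, Phc1 and Phf19; 20.1% of all genes in either direction), 1 without *Mirc11-/-* library 2 and 1 without wildtype library 2. The count of 2 held other members with the replicate block (Kdm6b and Phc1), the erythroid covariate and without *Mirc11-/-* library 1 (Kdm6b and Tet2), and without wildtype library 1 (Kdm6b and Pcgf5). The members' median of -0.06 became 0.0063 with the erythroid covariate, and lay between -0.10 and -0.04 with a library left out. Per kilobase of all annotated exons the log2 ratio of Tet2 to Tet1 turned from 0.58 to -0.19. Other ratios of paralogs kept their sign but changed in size, such as Ezh2 to Ezh1 from 2.49 to 2.05 and Dnmt3a to Dnmt3b from -0.58 to -1.12. Deviations of same-numbered libraries from their group means correlated at 0.07, -0.06 and 0.10, and not every library correlated best with its own number, so the replicate numbers were not taken as a pairing. The cause of these changes was not tested. Count tests on whole reads and TMM scaling were not run. With 3 libraries per genotype, a p above the threshold does not show that a member did not differ.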
